A study of Mus musculus with 16 samples.

Results

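The miRNAs described here are the 6 members of the miR-17-92, miR-106a-363 and miR-106b-25 clusters that were on the array and do not carry the miR-17 seed: mmu-miR-25, mmu-miR-92a, mmu-miR-363, mmu-miR-18a, mmu-miR-19a and mmu-miR-19b. They were chosen by name and not by their values, as all rows of the scanner files with one of these mouse miRNA names, which gave 12 probes, 2 for each miRNA, of the 1857 probes and 650 miRNA names on the array. All 6 passed the filter for expressed miRNAs, which 281 names passed, although miR-363 passed it only through the control arrays. Counts read against all expressed miRNAs are therefore also given over the other 5, and the calls of miR-363 itself were the same with no filter (adjusted p = 1.5e-07 at p4 and 0.000102 at E17, limma). The measurements came from sciatic nerves of mice that all carried the Dhh-Cre transgene, whose promoter is active in Schwann cells from the precursor stage on. Mutants were Dicer fl/fl Dhh-Cre+ and controls were Dicer wt/fl Dhh-Cre+, so that the controls also carried Cre and had 1 floxed Dicer allele. Nerves were taken at embryonic day 17 (E17), before myelination, and at postnatal day 4 (p4), when myelin is being formed, with 4 mice per genotype and age and 1 array per mouse, 16 arrays in all. The mice were of both sexes, with 1 male and 3 females in each group except the p4 controls, of which 2 were male. A whole nerve also holds fibroblasts, endothelium, blood cells and axons, in which Cre is not expected to act. For every result below, fewer cells of a type and less RNA per cell cannot be told apart.

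Dicer is the enzyme that cuts hairpin precursors into mature miRNAs, and a mature miRNA finds its targets mainly through its seed, bases 2 to 8 from its 5′ end. The 3 clusters are related by duplication, and in each the miRNAs are cut from hairpins that lie side by side on 1 transcript. Their members fall into families by seed: the miR-17 family, the miR-18 family, the miR-19 family, and the family of miR-25, miR-92a and miR-363. The miR-17-92 cluster is best known for promoting proliferation and is high in many dividing cells.

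The mature sequences of all 6 were found in RefSeq (GRCm38.p6). They are shown because the 3 seeds divide the 6 miRNAs into the groups by which the values are ordered below. The array names give no arm, and the arm taken is the one without the star in the older naming. The seed is in capitals.
miR-25-3p: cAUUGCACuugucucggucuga
miR-92a-3p: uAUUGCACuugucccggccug
miR-363-3p: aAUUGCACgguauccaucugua
miR-18a-5p: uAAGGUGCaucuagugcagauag
miR-19a-3p: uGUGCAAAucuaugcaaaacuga
miR-19b-3p: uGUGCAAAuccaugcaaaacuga

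miR-25, miR-92a and miR-363 shared 1 seed, which 6 mature mouse miRNAs of the table carry. Outside the seed, miR-25 and miR-92a differed at 3 of the 21 bases compared (C1U, U14C and U18C, counted from the 5′ end, the base of miR-25 first), while miR-92a and miR-363 differed at 11 of 21. miR-19a and miR-19b differed at 1 of 23 bases, U11C, so that their probes may share some signal. miR-18a had the seed AAGGUGC, 1 base away from the seed of its neighbor miR-20a, as the following lines show for the 4 cluster neighbors that were expressed.
miR-20a-5p: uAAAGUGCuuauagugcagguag
miR-20b-5p: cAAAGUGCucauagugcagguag
miR-93-5p: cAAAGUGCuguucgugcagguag
miR-106b-5p: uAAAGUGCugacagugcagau

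In the RefSeq annotation of GRCm38.p6, the hairpins of the miR-17-92 cluster lie within 836 bases of chromosome 14 (chr14:115043671-115044506, plus strand) in the order miR-17, miR-18a, miR-19a, miR-20a, miR-19b-1 and miR-92-1. The miR-106a-363 cluster spans 875 bases of the X chromosome (chrX:52741693-52742567, minus strand) in the order miR-106a, miR-18b, miR-20b, miR-19b-2, miR-92-2 and miR-363. The miR-106b-25 cluster spans 498 bases (chr5:138165321-138165818, minus strand) in the order miR-106b, miR-93 and miR-25, and lies within Mcm7, a gene for a subunit of the replicative helicase. miR-92a and miR-19b are each made from 2 genes, 1 on chromosome 14 and 1 on X, with the same mature sequence, which an array cannot separate. miR-363 is thus the only 1 of the 6 that comes from the X chromosome alone.

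The summed background-subtracted signal of an array ranged from 36495 to 60374 in E17 controls, from 39097 to 50827 in E17 mutants, from 122860 to 154076 in p4 controls and from 56841 to 83630 in p4 mutants. The groups therefore differed in total signal before normalization, and all log2 values below are quantile normalized, which sets every array to the same distribution. The 8 arrays of each age filled 1 slide, with both genotypes on it, and the effects of age and of slide cannot be told apart. At p4, the names of the scanner files gave each replicate number a date of its own, shared by its control and its mutant, and at E17 they gave 1 date for all arrays. Of the marker miRNAs of myelinating glia, miR-338-3p and miR-204 were detected on all 16 arrays and miR-219, a marker of the oligodendrocyte lineage, on none. miR-338-3p and miR-204 were lower in p4 mutants by log2 differences of −2.85 and −2.04 (adjusted p = 9.29e-08 and 5.28e-07, limma), and their summed signal ran from 4798 to 5531 in p4 controls and from 224 to 455 in p4 mutants.

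At p4, miR-92a and miR-363 were lower in the mutants past both limits used here, 0.05 for the adjusted p and 0.5 for the size of the log2 difference. These are 2 of the 6 miRNAs and, leaving out miR-363, 1 of the other 5, and none was higher. Over all expressed miRNAs, 10.7% were called lower and 10.3% higher. At the adjusted p alone, 4 of the other 5 were lower, against 26% of all expressed miRNAs, and their median log2 difference was −0.49, against 0.06 over all expressed miRNAs. Which of the others passed the limit of 0.5 depended on the scaling of the arrays, since 5 of 6 were called without normalization. Over all miRNAs, 30 were called lower and 29 higher with quantile normalization. These counts became 89 and 1 without normalization, 75 and 2 when scaled to the 75th percentile of all probes, 44 and 4 when scaled to positive-control probes, and 22 and 203 when the 75th percentile was taken over probes detected on every array.

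**Figure D1:**
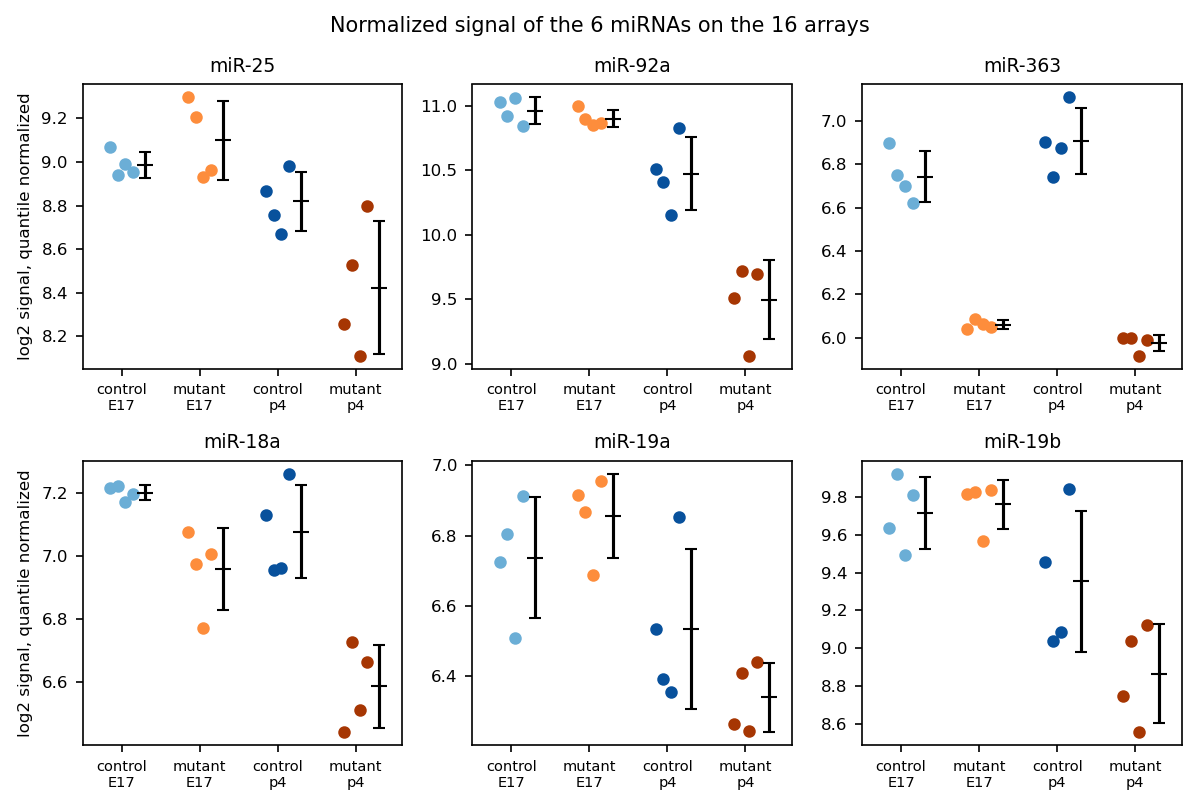
Quantile-normalized log2 signal (y axis) of the brightest probe of each of the 6 miRNAs on the 16 arrays, by genotype and age (x axis). Points are arrays in the order of their replicate numbers, and bars beside them are mean ± SD (n = 4). miR-363 sat near 6.06 and 5.98 in the 2 mutant groups and at 6.62 or above in every control, while miR-92a fell apart by genotype at p4 and not at E17.

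mmu-miR-92a, made on chromosome 14 and on X, read 10.51, 10.41, 10.15 and 10.83 in the 4 controls at p4 on the log2 scale. The 4 p4 mutants read 9.51, 9.72, 9.06 and 9.70. Every mutant array lay below every control array, which was so for 2 of the 5 miRNAs other than miR-363 (miR-92a and miR-18a) and for 24.2% of all expressed miRNAs. The log2 difference was −0.98 (SE 0.144, adjusted p = 8.32e-05, limma), which put the mutants at 50.8% of the controls. Between the control and the mutant of the same replicate number, and so of the same date, it was −0.996, −0.695, −1.09 and −1.13. The other probe of miR-92a gave −0.87 (SE 0.0902, adjusted p = 3.26e-06, limma).

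mmu-miR-363 read 6.91, 6.74, 6.87 and 7.11 in the p4 controls and 5.997, 5.9998, 5.92 and 5.99 in the p4 mutants. The scanner software detected it on all 8 control arrays of both ages and on 0 of the 8 mutant arrays. Because neither probe was well above background in the mutants, the difference is a bound. The bound was set against the lowest signal that was well above background on each mutant array (mean 6.28 on the log2 scale). By it, miR-363 was at least 1.54-fold lower in p4 mutants. The measured log2 difference was −0.93 (SE 0.067, adjusted p = 9.29e-08, limma). Where only the probes detected on every array set the scale, the difference was −0.40 and miR-363 was no longer called.

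mmu-miR-25, the last hairpin of the cluster within Mcm7, read 8.87, 8.76, 8.67 and 8.98 in the p4 controls and 8.26, 8.53, 8.11 and 8.80 in the p4 mutants. The arrays of the 2 genotypes overlapped, with mutant replicate 4 inside the range of the controls. The log2 difference was −0.40 (SE 0.128, adjusted p = 0.0221, limma), past the p limit and short of 0.5. Its other probe, dimmer and without overlap of the arrays, gave −0.24 (SE 0.0534, adjusted p = 0.00188, limma). Without p4 mutant replicate 4 the difference was −0.52 and miR-25 was called, as it was without normalization (−1.20), with the 75th percentile of all probes (−1.09) and with the positive-control probes (−0.91). Within replicate numbers it was lower in 4 of 4 mutants, with differences of −0.61, −0.23, −0.56 and −0.18.

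mmu-miR-18a read 7.13, 6.96, 6.96 and 7.26 in the p4 controls and 6.44, 6.73, 6.51 and 6.67 in the p4 mutants, again with all mutants below all controls. Its log2 difference of −0.49 (SE 0.08, adjusted p = 0.000194, limma) lay just inside the limit of 0.5. It was called lower when any 1 of 4 arrays was left out, p4 control replicates 2 and 3 and p4 mutant replicates 2 and 4. The values then ran from −0.52 to −0.54. It was also called without normalization (−0.897), with the 75th percentile of all probes (−0.79), with the processed signal (−0.78) and with the deposited normalized intensities (−0.54, adjusted p = 0.00012, limma), but not with the positive-control probes (−0.61, adjusted p = 0.149, limma). Within replicate numbers the difference was −0.69, −0.23, −0.45 and −0.59. When scaled to the probes detected on every array, the difference was −0.013 (adjusted p = 0.913, limma).

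The miR-19 pair, which shares all but 1 base, was not called. mmu-miR-19b read 9.46, 9.04, 9.08 and 9.84 in the p4 controls and 8.75, 9.04, 8.55 and 9.12 in the p4 mutants, with overlapping arrays and a log2 difference of −0.49 (SE 0.17, adjusted p = 0.0303, limma). It too was called when 1 of the same 4 arrays was left out, at −0.55 to −0.60. It was called without normalization (−1.46), with the 75th percentile of the detected probes (−0.57) or of all probes (−1.35), with the positive-control probes (−1.17) and with the processed signal (−0.62), but not after normexp (−0.43) or with the deposited normalized intensities (−0.49). mmu-miR-19a read 6.53, 6.39, 6.35 and 6.85 in the p4 controls and 6.26, 6.41, 6.24 and 6.44 in the p4 mutants. Its difference was −0.19 (95% interval −0.43 to 0.04, adjusted p = 0.165, limma), and it was positive, at 0.45, when scaled to the probes detected on every array. It was detected on 3 of the 4 p4 mutant arrays and on every array of the other groups. Within replicate numbers, miR-19b differed by −0.71, −0.0045, −0.53 and −0.72 and miR-19a by −0.27, 0.018, −0.11 and −0.42, so that replicate 2 showed hardly any difference in either. With the replicate number as a block, miR-19a passed the adjusted p (0.0444, limma), still within the limit of 0.5.

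At E17, mmu-miR-363 was the only 1 of the 6 that was called lower in the mutants. Of all expressed miRNAs 2.49% were, from which nothing is read here because miR-363 passed the filter only through the controls. It read 6.90, 6.75, 6.70 and 6.62 in the E17 controls and 6.04, 6.09, 6.06 and 6.05 in the E17 mutants. The bound was at least 1.26-fold lower, and the measured log2 difference was −0.68 (SE 0.067, adjusted p = 5.78e-05, limma). The difference kept its direction and fell short of the call in 4 of the 7 other scalings or corrections, at −0.35 without normalization, −0.22 with the probes detected on every array, −0.35 with the positive-control probes and −0.46 after normexp background correction. Over all miRNAs, 7 were called lower and 10 higher at E17, which became 5 and 2, 6 and 25, 21 and 0, and 2 and 1 under no normalization, the 75th percentile of detected probes, that of all probes, and the positive-control probes.

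The other 5 were not called at E17. mmu-miR-18a read 7.22, 7.22, 7.17 and 7.20 in E17 controls and 7.08, 6.97, 6.77 and 7.005 in E17 mutants. Like miR-363 it had no overlap, as had 13.9% of all expressed miRNAs on the lower side, and its log2 difference of −0.24 (SE 0.08, adjusted p = 0.0699, limma) did not pass. The log2 differences of miR-25, miR-92a, miR-19a and miR-19b were 0.11, −0.06, 0.12 and 0.05, with 95% intervals from −0.16 to 0.39, from −0.37 to 0.25, from −0.11 to 0.35 and from −0.32 to 0.41. Of these, miR-25, miR-19a and miR-19b had the opposite sign under the 75th percentile of all probes, at −0.31, −0.03 and −0.38.

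Whether the mutant effect at p4 differed from that at E17 was tested by the difference between both effects. It was called for miR-92a, at −0.92 on the log2 scale (SE 0.203, adjusted p = 0.00701, limma). That is 1 of the 6, and 1 of the 5 without miR-363, against 6.76% of all expressed miRNAs called lower. The other 5 had differences of −0.25 to −0.54 with adjusted p from 0.0759 to 0.206 (limma). For miR-25 the difference of −0.51 (SE 0.18, adjusted p = 0.0759, limma) was called without p4 mutant replicate 4, at −0.63, and with the replicate number as a block (adjusted p = 0.028, limma). Its other probe gave −0.27 (adjusted p = 0.0274, limma). For miR-363, whose mutant arrays were below background at both ages, the 2 effects are bounds and their difference of −0.25 (adjusted p = 0.0979, limma) compares bounds. Over all miRNAs 19 were called lower and 8 higher, which became 84 and 2, 23 and 47, 47 and 3, and 16 and 1 under the scalings in the order given for E17.

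**Figure D2:**
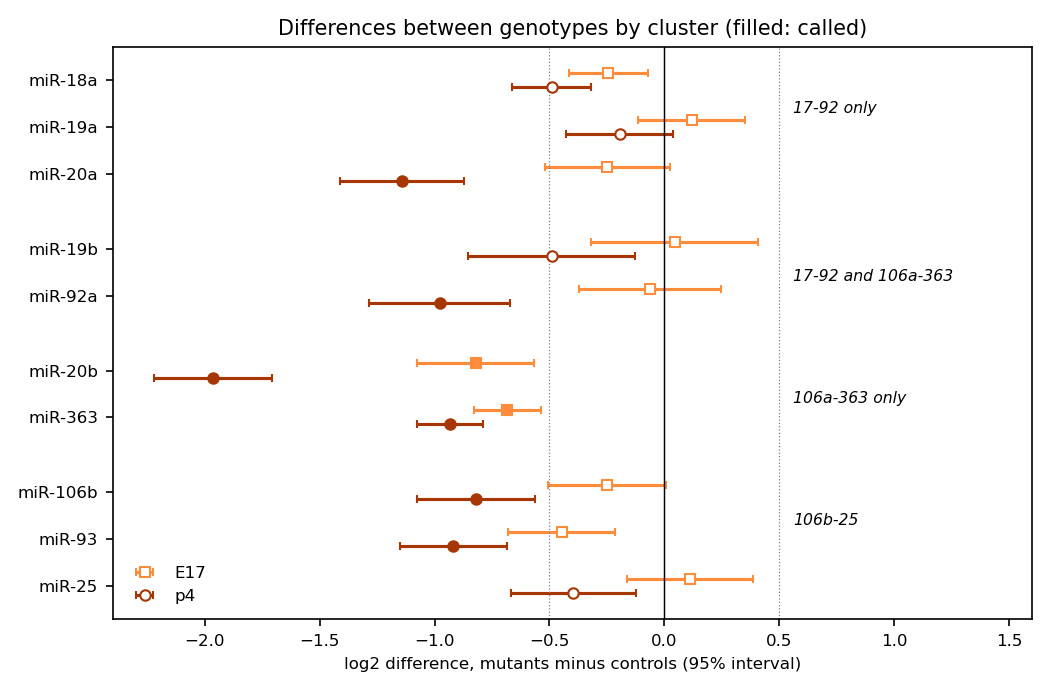
Log2 difference between mutants and controls with its 95% interval (x axis) at E17 (squares) and p4 (circles) for the 6 miRNAs and the 4 expressed cluster neighbors with the miR-17 seed (y axis), ordered by the cluster that encodes them. Filled symbols were called, and dotted lines mark the limit of 0.5. miR-20b had the lowest value at both ages. miR-363 passed the filter only through the controls and was below background in the mutants, so nothing is read from its place.

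The cluster neighbors gave larger differences than most of the 6. Of 7 neighbors named (miR-17, miR-20a, miR-106a, miR-20b, miR-106b and miR-93, and miR-18b, which has the miR-18 seed), 6 had probes under these names and 4 were expressed, since miR-17 and miR-18b were each detected on 1 array, p4 control replicate 4. All 4 expressed neighbors were called lower in p4 mutants, against 10.7% of all expressed miRNAs. Their log2 differences were −1.14 for miR-20a, −1.96 for miR-20b, −0.82 for miR-106b and −0.92 for miR-93 (adjusted p from 1.72e-08 to 8.03e-05, limma). At E17, 1 of the 4 was called lower, miR-20b at −0.82 (adjusted p = 0.0015, limma), against 2.49% of all expressed miRNAs. miR-93, at −0.45 (adjusted p = 0.0197, limma), stayed within the limit of 0.5. Of 10 passenger strands of the clusters, 8 were on the array and 1, miR-17*, was expressed. It passed the filter only through the controls, being detected on all 4 p4 control arrays and on 0 of the 4 p4 mutant arrays. Nothing is therefore read from its difference. It was at least 1.05-fold lower in p4 mutants, a bound close to no difference. The measured log2 difference was −0.30 (SE 0.0499, adjusted p = 0.000203, limma). The relatives by seed from other loci, miR-92b, miR-32 and miR-367, were on the array and none of these 3 was expressed.

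By locus, miR-20b, made from the X chromosome alone, was called lower at both ages. miR-363, also from X alone, was called too, but only as a bound. Nothing is read from its calls here, because it passed the filter only through the controls. Over all expressed miRNAs, 10.7% were called lower at p4 and 2.49% at E17. The trio made from chromosome 14 alone, miR-18a, miR-19a and miR-20a, had no call at E17 and 1 at p4. miR-19b and miR-92a, made from both, had no call at E17 and 1 at p4. Within Mcm7, miR-106b and miR-93 were called at p4 and miR-25 was not. At p4, miR-18a, miR-19b and miR-25 were called under some other scalings. No pattern by locus is therefore read from these calls.

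These differences between neighbors were compared within each array, by the ratio of the background-subtracted signals of 2 miRNAs of a cluster, which multiplying all signals of an array by a factor does not change. In 7 pairs and 2 ages, 14 comparisons were made by exact two-sided permutation tests, whose smallest p with 4 against 4 arrays is 0.0286. miR-25 over miR-93 was 1.91 to 2.06 in p4 controls and 3.12 to 4.21 in p4 mutants. At E17 the ratio was 1.97 to 2.55 in controls and 3.15 to 3.85 in mutants. Neither age had any overlap, and the ratio was 1.83-fold higher in p4 mutants and 1.55-fold higher in E17 mutants (exact p = 0.0286, adjusted p = 0.05 at both ages). miR-25 over miR-106b behaved likewise, 1.68-fold higher at p4 and 1.26-fold higher at E17 (exact p = 0.0286, adjusted p = 0.05). miR-106b over miR-93 overlapped at both ages, with 1.09-fold at p4 and 1.23-fold at E17 (exact p = 0.343 and 0.0857). miR-25 was thus higher in the mutants relative to both other miRNAs of its transcript, at E17 as well as at p4.

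In the miR-17-92 cluster, miR-18a over miR-20a was 0.097 to 0.118 in p4 controls and 0.147 to 0.162 in p4 mutants, 1.43-fold higher (exact p = 0.0286, adjusted p = 0.05). miR-19a over miR-20a was 2.19-fold higher in p4 mutants and 1.496-fold higher in E17 mutants, the latter with overlap (exact p = 0.0286 and 0.0571, adjusted p = 0.05 and 0.08). miR-20a and miR-20b differed at 2 of 23 bases, so that their probes may share some signal. Whether this entered the ratios over miR-20a was not tested. miR-19b over miR-92a was 0.353 to 0.515 in p4 controls and 0.541 to 0.624 in p4 mutants, 1.42-fold higher (exact p = 0.0286, adjusted p = 0.05), and overlapped at E17. miR-18a over miR-19a was 0.628-fold at E17 (exact p = 0.0286, adjusted p = 0.05) and overlapped at p4. In all, 5 of 7 ratios at p4 and 3 of 7 at E17 had no overlap. The pairs were picked after the data had been seen. The share without overlap among ratios of other expressed miRNAs was not computed, so nothing is read from these counts. miR-363 was left out of these ratios because its mutant signals were not detected.

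**Figure D3:**
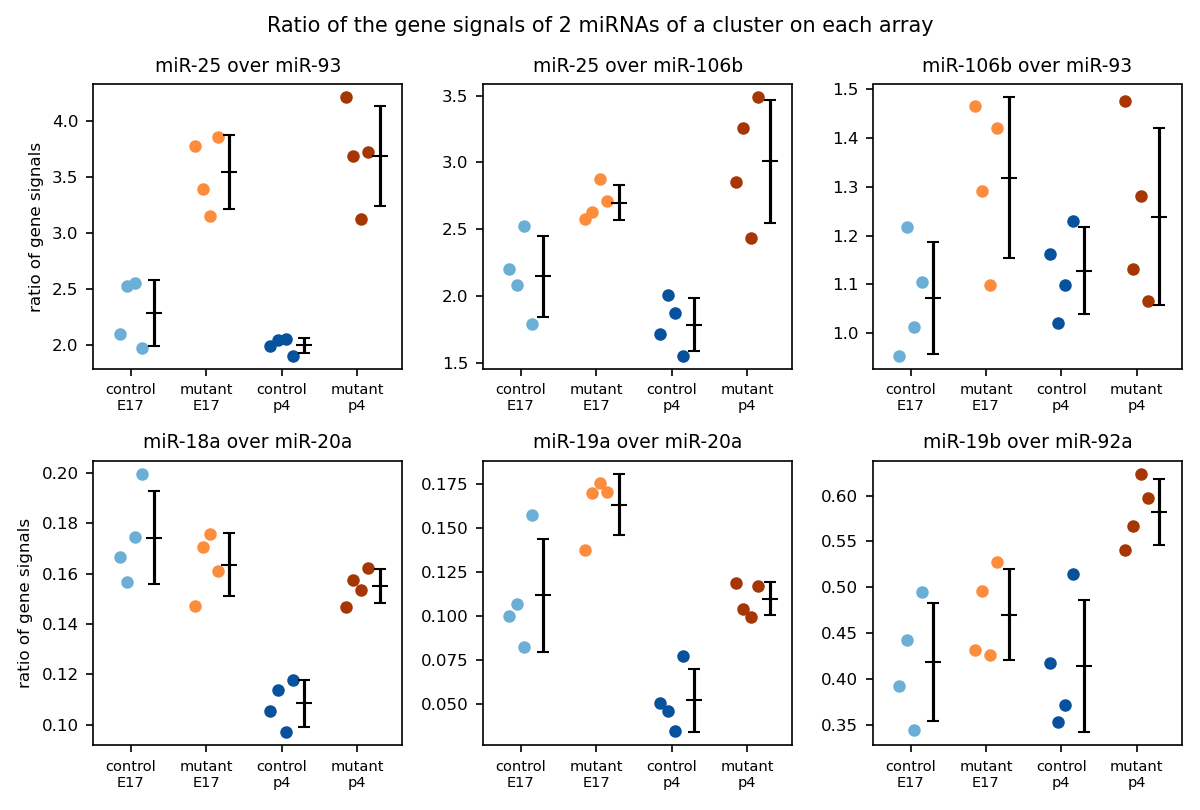
Ratio of the background-subtracted gene signals of 2 miRNAs of the same cluster on each of the 16 arrays (y axis, linear), by genotype and age (x axis), for 6 of the 7 pairs. Points are arrays and bars are mean ± SD (n = 4). miR-25 over miR-93 stayed below 2.6 in all controls and above 3.1 in all mutants, and miR-106b over miR-93 overlapped.

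The signals before normalization show what the scaling does to the age comparisons. Feature Extraction gives a background-subtracted gene signal per miRNA and array. For miR-92a it was 993, 959, 719 and 1063 in E17 controls and 719, 851, 719 and 664 in E17 mutants. It was 2053, 2111, 2085 and 2273 in p4 controls and 437, 659, 369 and 571 in p4 mutants. The p4 controls stood above all other arrays and the p4 mutants below all others. The p4 mutants were at 23.9% of the p4 controls in mean gene signal, while the total signal of all miRNAs was at 51.6%.

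For miR-363 the gene signal was 49.95, 40.5, 26.6 and 43.7 in E17 controls, 4.39, 7.38, 6.83 and 5.41 in E17 mutants, 83.8, 88.5, 91.5 and 109 in p4 controls and 3.19, 2.57, 1.72 and 2.71 in p4 mutants. The mutant signals were not detected at either age, so no ratio is drawn from them. Of the other 5, none was lower without overlap at E17 on this scale, where 9.25% of all expressed miRNAs were, and in share of the total 1 of the other 5, miR-18a, was, against 15.7%.

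The other 4 were at 40.2% (miR-25), 28.7% (miR-18a), 41.2% (miR-19a) and 33.3% (miR-19b) of the p4 controls. For none of the 5 members detected in the mutants did the p4 mutant arrays overlap the p4 control arrays in gene signal (exact permutation p = 0.0286 each, adjusted p = 0.0457 over 24 comparisons), and 41.6% of all expressed miRNAs were lower without overlap on this scale. As a share of the total signal of each array, miR-92a held 1.598% ± 0.197 (SD, n = 4) in p4 controls and 0.725% ± 0.0749 in p4 mutants. On that scale 4 of these 5 were lower without overlap, against 22.4% of all expressed miRNAs, and miR-19a overlapped.

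**Figure D4:**
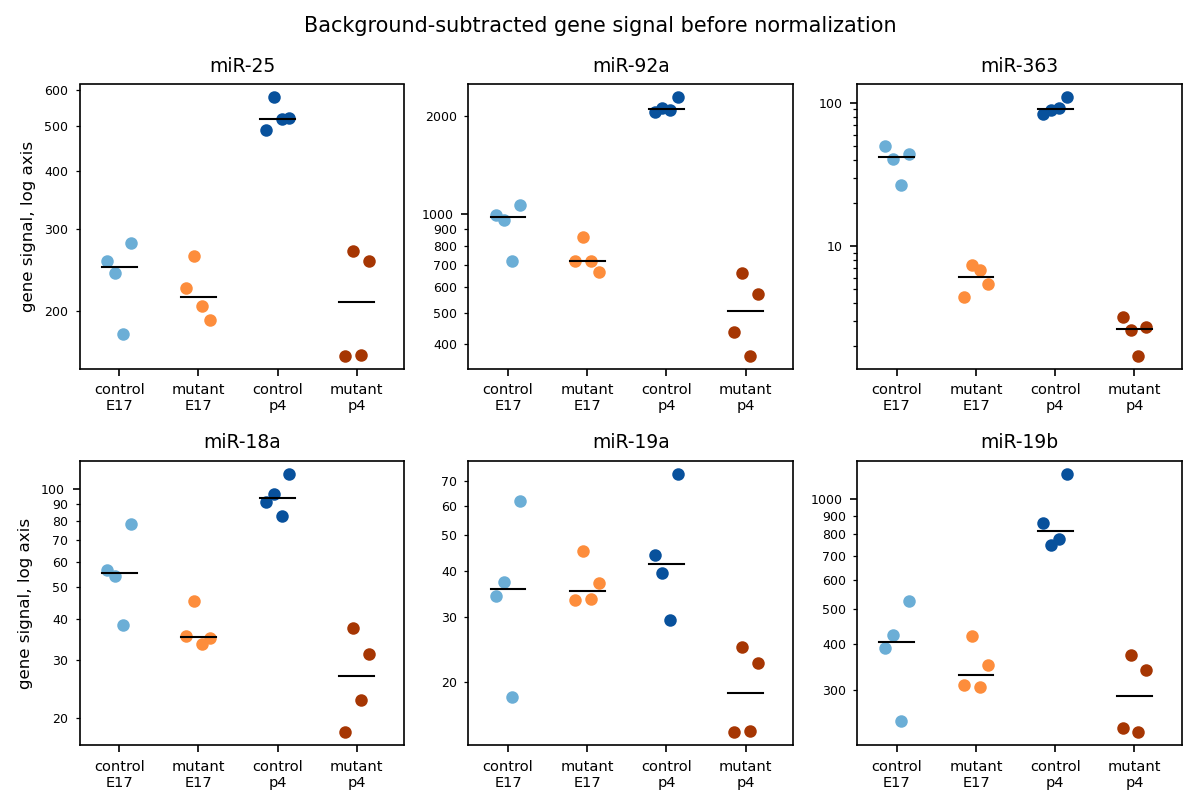
Background-subtracted gene signal before normalization (y axis, log scale) of the 6 miRNAs on the 16 arrays, by genotype and age (x axis). Points are arrays and lines are group medians. In all 6 panels the p4 mutants lie below the p4 controls, and for miR-363 the mutants lie below 7.4 at both ages, against 26.6 or more in controls.

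With age, none of the 6 was called in the controls after quantile normalization, where 12.1% of all expressed miRNAs were called lower and 8.19% higher. At an unadjusted p under 0.05, 2 of the 6 differed (miR-92a lower and miR-363 higher), and of the 5 without miR-363 only miR-92a did. Of all expressed miRNAs, 55.2% did in either direction. At the adjusted p, miR-92a passed, 1 of these 5, against 22.1% of all expressed miRNAs on the lower side. Its log2 difference from E17 to p4 was −0.49 (SE 0.144, adjusted p = 0.0141, limma), and it was called without any 1 of 4 arrays, E17 control replicates 2 and 4 and p4 control replicates 1 and 4, at −0.50 to −0.61. Without p4 control replicate 4, miR-19b was called as well, at −0.52. The brighter probe of miR-92a carried this difference and the other probe did not, at −0.04 (adjusted p = 0.751, limma).

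The direction with age in controls turned with the scaling. Without normalization 5 of the 6 were called higher at p4, with log2 differences of 1.096 for miR-25, 1.197 for miR-92a, 0.82 for miR-363, 0.61 for miR-18a and 1.15 for miR-19b, and miR-19a was at 0.33. Scaled to positive-control probes, 5 of the 6 were called lower. By the brightest probe these were miR-363 (−0.63), miR-18a (−0.84) and miR-19a (−1.12), and the rest of the calls came from dimmer probes. The brightest probes of miR-25, miR-92a and miR-19b did not pass (−0.35, −0.25 and −0.30, adjusted p = 0.207, 0.367 and 0.279, limma). In gene signal 5 of the 6 were higher in p4 controls without overlap, 1.68-fold to 2.32-fold. Leaving out miR-363, 4 of the other 5 were, as were 58% of all expressed miRNAs. The total signal was 2.72-fold higher. In share of the total miR-25 and miR-18a, 2 of these 5, were lower without overlap, and miR-363 was not, against 40.9%. Over all miRNAs, 34 were called lower and 23 higher with age in controls, which became 4 and 161, 197 and 30, 5 and 92, and 222 and 14 under the scalings in the order given for E17.

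In the mutants, 4 of the 6, and 4 of the 5 without miR-363, were called lower at p4 than at E17, against 7.47% of all expressed miRNAs. These were miR-25 at −0.68, miR-92a at −1.41, miR-19a at −0.52 and miR-19b at −0.90 (adjusted p from 8.95e-06 to 0.0029, limma). miR-18a, at −0.37 (adjusted p = 0.00364, limma), stayed within the limit of 0.5, and miR-363 was below background at both ages. At the adjusted p alone all of the 5 without miR-363 were lower, against 17.4%. In gene signal 2 of the other 5, miR-92a and miR-19a, were lower without overlap, at 69.0% and 51.3% of the E17 mutants, against 5.69% of all expressed miRNAs. Without normalization none of the 6 was called, with miR-92a at −0.50 and miR-25 at −0.07, and with the 75th percentile of all probes none was called either. miR-19a was no longer called without E17 mutant replicate 1 or 4 or p4 mutant replicate 1 or 3, at −0.48 to −0.50. The share of the total signal was lower in p4 mutants without overlap for all of the other 5, at 31.7% to 59.2% of the E17 mutants, where 24.6% of all expressed miRNAs were lower without overlap. Over all miRNAs, 21 were called lower and 9 higher, which became 8 and 57, 51 and 20, 8 and 57, and 261 and 0 under the scalings in the order given for E17.

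**Figure D5:**
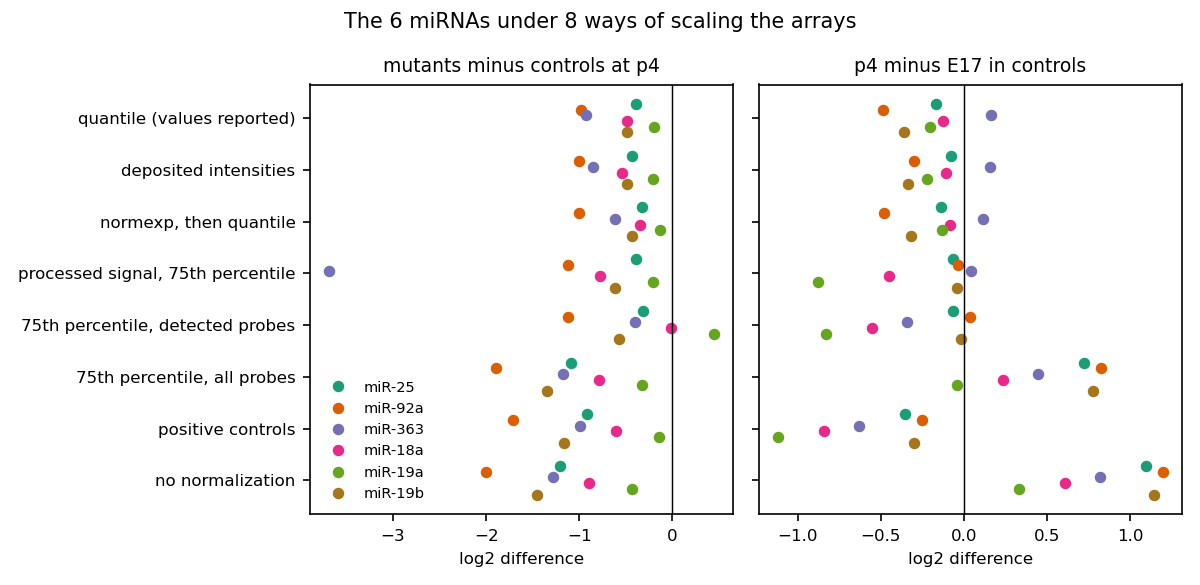
Log2 differences (x axis) of the 6 miRNAs between mutants and controls at p4 (left) and between p4 and E17 in controls (right) under 8 ways of scaling the arrays (y axis). At p4 all points are below 0 except miR-19a at 0.45, and with age in controls they lie on both sides of 0.

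The order of the 4 groups, by normalized log2 signal, was not the same for all 6. miR-25, miR-19a and miR-19b ran from E17 mutants through E17 controls and p4 controls to p4 mutants. Between neighbors, miR-25 had adjusted p = 0.637, 0.319 and 0.0221 and miR-19b had 0.898, 0.108 and 0.0303 (limma). Only the last step thus passed for these. miR-92a ran from E17 controls through E17 mutants and p4 controls to p4 mutants, with adjusted p = 0.827, 0.0227 and 8.32e-05 (limma) between neighbors. For miR-363 both control groups were above both mutant groups, the control groups did not pass the test between themselves (adjusted p = 0.0652, limma), and the mutant groups, both below background, have no order. For miR-18a the p4 mutants were below the E17 mutants (adjusted p = 0.00364, limma), and the 3 groups above them were not separated from their neighbors in the order. For miR-19a no pair of neighbors passed.

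Over the 16 arrays, the miRNA whose normalized signal was most like that of miR-25 was miR-15b (Pearson r = 0.915), followed by miR-92a (0.913) and miR-19b (0.900). For miR-92a these were miR-15b (0.957), miR-455 (0.925) and miR-19b (0.916). miR-18a was most like its neighbor miR-20a (0.971), then miR-130b (0.952) and miR-20b (0.945), and miR-19a and miR-19b were most like each other (0.954), then like miR-301a (0.902 and 0.917). miR-363 was most like miR-181b (0.969), miR-107 (0.910) and miR-27b (0.903), and its r with the other 5 was 0.14 to 0.76. These correlations are over arrays that share 4 groups, and differences between the groups enter them.

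The values of marker miRNAs of other cell types were also looked at. In normalized log2 signal, p4 control replicate 4 was the highest of the 4 p4 controls for all 6 miRNAs. In gene signal before normalization, miR-25 was highest in replicate 2, at 578 against 521 in replicate 4. The total signal of replicate 4 was the lowest of the p4 controls, 122860. Its summed signal of 3 erythroid miRNAs (miR-451, miR-144 and miR-486), not normalized, was the lowest of any array, 205. The erythroid sum was 788 to 3283 in E17 controls, 2103 to 4787 in E17 mutants, 205 to 1746 in p4 controls and 453 to 1218 in p4 mutants, so it overlapped between genotypes at both ages, while miR-451 alone was higher in p4 mutants (log2 difference 1.35, adjusted p = 0.0306, limma). At E17 miR-486 was called higher in mutants (0.52, adjusted p = 0.0296, limma), and miR-451 stood at 1.47 (adjusted p = 0.0624, limma). Of 5 leukocyte markers, 1 was called higher in p4 mutants and 1 in E17 mutants, with sums of 228 to 342 in p4 controls and 280 to 417 in p4 mutants, and miR-142-5p and miR-150 were detected on no array. Of 5 miRNAs of fibroblasts and smooth muscle, 3 were called higher in mutants at each age, miR-199a-3p, miR-199a-5p and miR-214. Over all expressed miRNAs 10.3% were called higher at p4, and at E17 17 of 281 were called in either direction. miR-143 was not called, at 0.08 at p4 and 0.05 at E17 (adjusted p = 0.635 and 0.827, limma), and miR-145 was detected on no array. At E17 the brightest probes of miR-199a-3p and miR-214 did not pass (adjusted p = 0.176 and 0.142, limma), and both were called by another probe. The p4 sums overlapped, at 4139 to 5658 in controls and 4020 to 7293 in mutants. None of the endothelial, skeletal muscle or neuronal lists had more than 1 call between genotypes at either age. The neuronal sum did not overlap at p4, at 168 to 189 in controls and 81 to 124 in mutants. Of its 4 miRNAs, miR-9 was called lower in p4 mutants (−0.68, adjusted p = 0.000603, limma), where it was detected on 0 of 4 arrays. miR-124 and miR-132 were higher within the limit of 0.5 (0.31 and 0.28, adjusted p = 0.00142 and 0.000314, limma). miR-128 did not pass (0.097, adjusted p = 0.308, limma). The part of all these markers in the results for the 6 miRNAs was not tested.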

How the data were processed

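The authors deposited, per the file headers, the intensity of every spot of Agilent mouse miRNA arrays of design 021828 as given by Feature Extraction 10.5.1.1, not normalized between arrays, and a second table with their own quantile-normalized intensity of 1902 probes, used as an alternative. Median spot signals were taken to log2, quantile normalized over the 13000 non-control spots of each array, and averaged over up to 10 spots per probe, leaving out outlier spots. miRNAs were kept as expressed when detected by the software on a share of 0.5 or more of any group's arrays (281 miRNAs with 681 probes). limma 3.58.1 in R 4.3.3 (lmFit, eBayes) was fitted once for the 4 groups of arrays, with Benjamini-Hochberg adjustment over 681 probes. A miRNA was called when at least 1 probe passed both limits and none passed them in the other direction, and the values given are those of the probe with the highest mean. The methods' t-test was an alternative. Normexp, with an offset of 50, used median signals and median backgrounds.

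Members, cluster neighbors, passenger strands, relatives by seed, marker lists, tests and the rule for the miRNAs most like a member (the 3 highest Pearson r over the 16 arrays) were chosen with earlier results of these data known. The within-array ratios, the gene signal tests and the differences within replicate numbers were added after the data had been seen. Median signals keep their background, which compresses the differences of dim miRNAs such as miR-363 and miR-19a. Each mouse had 1 array, and the number of arrays limits the precision. Deviations of same-numbered arrays from their group means correlated at −0.52 to 0.09 at E17 and at −0.28 to 0.46 at p4, where 3 of 4 were above 0.1. The paper states that mutants and controls were 4 pairs of littermates at each age. The numbers share a date at p4, but the labels do not say that they mark these pairs. The fit has no block, and the permutation tests are unpaired. The statistics were tested on simulated data. The alternatives were other normalizations, background corrections, filters, limits, tests and probe rules, the groups compared alone, limma's weights for arrays, a replicate block, and each array left out in turn.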

Additional observations from a re-analysis of the deposited data

Results flagged for a closer look

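In 4 of 92 groups of 4 arrays checked, counting log2 signals, gene signals and ratios, 1 array stood apart from the other 3 by more than the 95% critical value of Dixon's ratio of gap to range, and chance gives about 1 in 20. For miR-363 in p4 mutants it was replicate 3, at 5.92 against 5.99 to 5.9998 on the log2 scale (ratio 0.871), all of them below background. For miR-19b in E17 mutants it was replicate 3, at 9.57 against 9.82 to 9.84 (ratio 0.921). For the gene signal of miR-18a in E17 mutants it was replicate 2, at 45.4 against 33.5 to 35.5 (ratio 0.835). For miR-19a over miR-20a in E17 mutants it was replicate 1, at 0.138 against 0.170 to 0.175 (ratio 0.849).

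The mutant effect differed between p4 and E17 by a test of the difference for miR-92a, at −0.92 on the log2 scale, and for the neighbors miR-20a at −0.89, miR-20b at −1.14 and miR-106b at −0.57 (adjusted p = 0.00701, 0.00348, 0.00032 and 0.0371, limma). All are lower values at p4 than at E17.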

How the results depend on the processing

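With both limits kept, miR-92a was called lower at p4 under all 31 alternatives (−2.0001 to −0.83) and miR-363 under 30 of 31, and the difference between the mutant effects was called for miR-92a under all 28. With a limit of 1 in place of 0.5 none of these was called. The number of the 6 called at p4 was 2. It was 5 without normalization, with the 75th percentile of all probes and at the adjusted p alone, 4 with the positive-control probes and with the processed signal, 3 with the deposited normalized intensities and with array weights, 3 with the 75th percentile of the detected probes (miR-92a and miR-19b lower and miR-19a, by its other probe, higher), and 0 with a limit of 1. At E17, where 1 was called, 0 were without normalization, with the 75th percentile of the detected probes, with the positive-control probes, after normexp and with a limit of 1. With age in controls none was called, but 5 were without normalization and with the positive-control probes, counting calls by either probe. The number was 4 with the 75th percentile of the detected probes, 3 with that of all probes, and 1 with the processed signal and at the adjusted p alone. With age in mutants 4 became 0 without normalization and with the 75th percentile of all probes, 1 with a limit of 1, and 2 with the mean over probes. For the difference between the mutant effects 1 became 6 without normalization, 3 with the 75th percentile of all probes, 4 with the processed signal, 2 with the deposited normalized intensities, at the adjusted p alone, with array weights and with the replicate block, and 0 with a limit of 1. Leaving out each array in turn gave 2 to 5 at p4 (5 without p4 mutant replicate 4, 4 without p4 control replicate 2 or 3 or p4 mutant replicate 2), 1 in every case at E17, 0 to 2 with age in controls (2 without p4 control replicate 4, 1 without E17 control replicate 2 or 4 or p4 control replicate 1), 3 to 4 with age in mutants, and 1 to 2 for the difference between effects (2 without p4 mutant replicate 4).

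The block changed no other call of the 6, and moved the calls over all miRNAs from 59 to 58 at p4, from 17 to 19 at E17 and from 27 to 29 for the difference between effects. Slide as a block could not be fitted, because no slide held both ages and within an age all arrays shared 1 slide.

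Without normalization, the sign turned at E17 for miR-25 (−0.039) and miR-19b (−0.11), and with age in controls for miR-25 (1.096), miR-92a (1.197), miR-18a (0.61), miR-19a (0.33) and miR-19b (1.15). With the 75th percentile of all probes it turned at E17 for miR-25 (−0.31), miR-19a (−0.0297) and miR-19b (−0.38), and with age in controls for miR-25 (0.73), miR-92a (0.83), miR-18a (0.24) and miR-19b (0.78). With that of the detected probes it turned for miR-19a at p4 (0.45), miR-18a at E17 (0.042), miR-92a (0.035) and miR-363 (−0.35) with age in controls, and miR-19a in the difference between effects (0.075). With the positive-control probes it turned at E17 for miR-25 (−0.037) and miR-19b (−0.11), and with age in controls for miR-363 (−0.63). Leaving out each array put miR-19b at E17 at −0.0287, without E17 control replicate 3, to 0.114. Over all miRNAs these scalings moved the median by −0.12 to 0.77 at p4, −0.02 to 0.39 at E17, −1.03 to 0.42 with age in controls, −1.15 to 0.02 with age in mutants and −0.39 to 0.36 for the difference between effects, and the cause of the differences between them was not tested. Of the values of single miRNAs, 804 kept their direction and side of the limits, 50 passed them, 23 no longer passed and 23 turned. Signals near background limit miR-363 in mutants and miR-19a in p4 mutants.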
